A study of Mus musculus with 6 samples.

Results

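The genes described here encode the proteins of small nucleolar ribonucleoproteins (snoRNPs) and 3 factors that assemble them. The members were chosen by name: Fbl, Nop56 and Nop58 of the box C/D core, Dkc1, Gar1, Nhp2 and Nop10 of the box H/ACA core, and the assembly factors Naf1, Shq1 and Nufip1. All 10 have a row in the deposited gene table, which holds 35148 rows, and all 10 were among the 20865 genes abundant enough to be tested. RNA was taken from the hypothalamic paraventricular nucleus (PVH), a cell group that regulates appetite, in Ruvbl2fl/fl mice. In these mice both copies of Ruvbl2 carry target sites of the Cre recombinase, and the labels do not say which exons the sites flank. The mice had received AAV2-GFP (3 libraries, here GFP-labelled) or AAV2-Cre-GFP (3 libraries, here Cre-labelled) into the PVH. Tissue is recorded as taken at week 8 after injection. Every mouse in both groups carried the floxed allele and received a virus. Cre came from the injected virus, so deletion could occur only in infected cells; the sources used here give neither the promoter driving Cre nor the share of infected cells. The question put by the comparison is which transcripts change when RUVBL2 is removed from the PVH.

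A snoRNP is a short guide RNA bound by a fixed set of proteins. Box C/D particles place methyl groups on the ribose of ribosomal RNA through fibrillarin, and box H/ACA particles convert uridine to pseudouridine through dyskerin, the product of Dkc1. Neither particle forms unaided: RUVBL1 and RUVBL2, a pair of AAA+ ATPases, work with a chaperone complex that delivers the core proteins to the guide RNA. Most vertebrate snoRNAs are cut out of introns of other genes, several of which encode snoRNP or ribosome assembly proteins.

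Among the members, Nop56, Nop58 and Dkc1 are also such host genes, and 9 of the 10 guide RNAs annotated in their introns are printed here, the 2 that lack a full pair of boxes included. The table has 10 snoRNA rows inside members: 5 in Nop56, 4 in Nop58 and 1 in Dkc1. The sequences are the GENCODE M21 transcripts, 5′ to 3′ on the plus strand, with coordinates in GRCm38. Capitals mark box C (searched on the RNA strand as NTGATGN within the first 22 bases) and box D (CTGA within the last 20 bases), the paired elements on which the C/D proteins sit. In Gm24451 they mark the elements of the other class, box H (ANANNA, the match nearest the middle) and ACA before the last 3 bases.
Snord110, intron 3 of Nop56, chr2:130275506-130275573: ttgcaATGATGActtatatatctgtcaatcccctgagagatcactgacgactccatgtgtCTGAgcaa
Gm24451, intron 5 of Nop56, chr2:130276237-130276369: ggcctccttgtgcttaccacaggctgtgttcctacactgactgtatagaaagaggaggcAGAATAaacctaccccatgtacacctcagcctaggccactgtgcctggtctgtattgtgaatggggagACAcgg
Gm23650, intron 9 of Nop56, chr2:130277697-130277766: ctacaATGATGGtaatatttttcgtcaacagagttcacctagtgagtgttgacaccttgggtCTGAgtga
Snord57, intron 10 of Nop56, chr2:130278016-130278087: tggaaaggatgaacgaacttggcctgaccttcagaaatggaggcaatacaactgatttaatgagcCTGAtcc
Snord70, intron 2 of Nop58, chr1:59691934-59692020: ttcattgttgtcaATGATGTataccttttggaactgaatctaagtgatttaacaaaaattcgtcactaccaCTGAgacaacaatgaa
Gm26293, intron 3 of Nop58, chr1:59692509-59692592: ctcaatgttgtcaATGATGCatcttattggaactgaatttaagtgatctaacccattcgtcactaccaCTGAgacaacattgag
Gm26287, intron 8 of Nop58, chr1:59704258-59704338: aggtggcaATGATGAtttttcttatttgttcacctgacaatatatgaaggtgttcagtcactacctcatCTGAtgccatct
Snord11, intron 9 of Nop58, chr1:59704790-59704873: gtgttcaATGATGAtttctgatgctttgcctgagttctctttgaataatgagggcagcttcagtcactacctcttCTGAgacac
Gm25520, intron 8 of Dkc1, chrX:75101409-75101526: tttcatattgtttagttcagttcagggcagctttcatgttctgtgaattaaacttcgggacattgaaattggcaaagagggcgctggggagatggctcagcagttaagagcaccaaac

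Of the 10 snoRNAs, 7 held both box C and box D, and 1 (Gm24451, inside the box C/D gene Nop56) held H and ACA. Snord57 held box D alone, and Gm25520, the only row inside Dkc1, held neither pair. Of 1449 annotated mouse snoRNA transcripts between 60 and 150 bases long, 24.2% held C and D by the same search and 14.8% held H and ACA without C and D. Among 3244 miRNA and snRNA transcripts of that length the shares were 0.123% and 0.801%. Neighbouring introns of Nop58 held related guides: Snord70 and Gm26293, in introns 2 and 3, shared a run of 25 identical bases, and Gm26287 and Snord11, in introns 8 and 9, shared 15. Every other pair among the 10 shared 11 bases or fewer.

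These libraries, made from RNA selected on oligo(dT), hardly measured the guides. The 10 rows held between 0 and 15 counts in a library. Snord110 was listed at 0 counts in all GFP-labelled libraries and at 1, 1 and 2 in the Cre-labelled ones. Gm24451 had 3, 7 and 15 counts in the GFP-labelled libraries and 4, 2 and 2 in the Cre-labelled ones, and no other row inside a member passed 5. Gm23187, Gm23650 and Snord57 were listed at 1 count in all 6 libraries. That value need not stand for a read: the deposited counts match fractional estimates rounded up, and before rounding Gm23650 stood between 0.0281 and 0.0766 of a count. Over all 578 snoRNA rows the sum was 1082 to 1536 counts a library. No difference in a member's own guide RNA was detectable at this depth.

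Ruvbl2, the gene that Cre targets, did not measure lower where Cre was given. It measured 9.90, 7.36 and 8.72 FPKM (the authors' unit, fragments per kilobase of gene model scaled to the size of the library) in the GFP-labelled libraries and 9.53, 9.10 and 9.51 FPKM in the Cre-labelled ones. The Cre-labelled values lay within the range of the GFP-labelled ones. The log2 difference, Cre-labelled minus GFP-labelled, was 0.08 ± 0.11 (SE, n = 3 and 3; adjusted p = 0.773), and its 95% interval reached down to a fall of 11.7%. A count over the whole gene does not separate the floxed exons from the rest. The virus labels are therefore unchecked by these data, and every direction below rests on them. Ruvbl1, the partner ATPase, measured 11.7, 12.7 and 13.8 FPKM against 16.1, 14 and 13.9 FPKM (log2 difference 0.17 ± 0.09, adjusted p = 0.405).

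No snoRNP gene passed the test for a difference between the groups. By edgeR's quasi-likelihood test 0 of 10 passed an adjusted p of 0.05, beside 2 of all genes tested (0.00959%), and 0 of 10 had an unadjusted p under 0.05, where 17.2% of all genes did. The groups did not overlap in TMM-normalised CPM (counts scaled to library size and composition) for 0 of 10, against 22.8% of all genes. DESeq2 called 0 of 10 where it called 8.03% of the genes to which it gave an adjusted p, and the 3 limma fits on log2 FPKM called 0. Of the members, 6 had a higher and 4 a lower mean in the Cre-labelled libraries, and of all genes 49.0% were higher and 51.0% lower. The members' median log2 difference was 0.03, beside -0.0058 over all genes tested. Their median absolute difference was 0.105, beside 0.18 over all genes and 0.125 over the 9252 genes of like abundance. Adjusted p-values ran from 0.394 to 0.96. All 10 intervals of the difference lay inside a 2-fold change in either direction and 8 inside a 1.5-fold change; Gar1 and Naf1 were the exceptions.

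**Figure D1:**
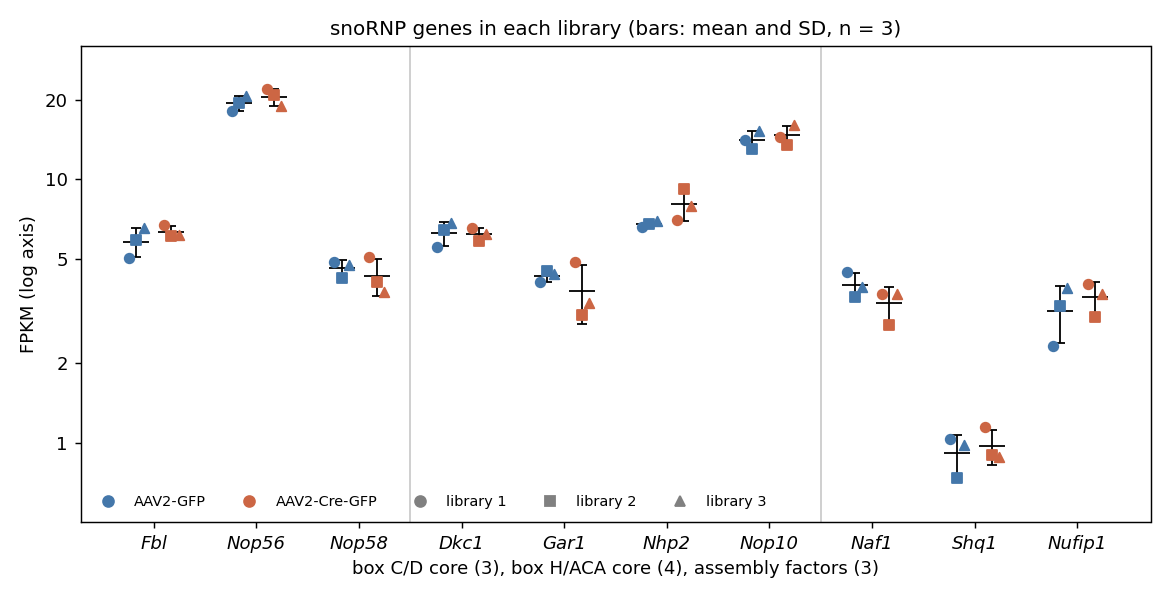
FPKM (log axis) of the 10 snoRNP genes in each library, with GFP-labelled libraries in blue, Cre-labelled libraries in orange, a marker shape for each library number, and bars at the mean and SD (n = 3). The groups intermix for 9 of the 10 genes, and for Nhp2 the lowest Cre-labelled value (7.01) lies just above the highest GFP-labelled one (6.94).

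Among the box C/D genes the SE of the log2 difference was 0.08 to 0.11. Fbl (ENSMUSG00000046865, GRCm38 chromosome 7, 28169710 to 28179269, plus strand) encodes fibrillarin, the methyltransferase of the particle. It stood at 5.03, 5.87 and 6.52 FPKM in the GFP-labelled libraries and at 6.71, 6.08 and 6.12 FPKM in the Cre-labelled ones. The lowest value was GFP-labelled library 1, and the rest overlapped. Means were 5.80 ± 0.748 and 6.30 ± 0.356 FPKM (SD, n = 3 each), and the log2 difference was 0.08 ± 0.11 with a 95% interval from -0.17 to 0.33 (adjusted p = 0.753).

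Nop56 (ENSMUSG00000027405, chromosome 2, 130274430 to 130279313, plus strand) encodes a scaffold protein that sits on one side of the particle. Its values were 18.1, 19.5 and 20.7 FPKM in the GFP-labelled libraries and 21.9, 20.8 and 18.9 FPKM in the Cre-labelled ones. Both groups spanned nearly the same range. With 3758 to 4929 counts a library it was the most precisely measured member: the log2 difference was 0.04 ± 0.08 (interval -0.13 to 0.22, adjusted p = 0.822), which spans a fall of 8.8% to a rise of 16.3%. Nop58 (ENSMUSG00000026020, chromosome 1, 59684971 to 59719044, plus strand) encodes the paralogous scaffold on the other side. It measured 4.84, 4.23 and 4.73 FPKM in the GFP-labelled libraries and 5.06, 4.07 and 3.73 FPKM in the Cre-labelled ones. The highest and the lowest value were both Cre-labelled. The log2 difference of Nop58 was -0.14 ± 0.11 (interval -0.40 to 0.12, adjusted p = 0.561).

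Snu13, which is not a member, encodes the remaining C/D core protein, the one that binds the guide RNA first. It measured 26.8, 26.0 and 24.8 FPKM in the GFP-labelled libraries and 30.8, 29.0 and 27.7 FPKM in the Cre-labelled ones, so its groups did not overlap. Its log2 difference of 0.14 ± 0.06 (interval 0.00 to 0.27) did not pass the test (adjusted p = 0.283).

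Among the box H/ACA genes the SE was 0.10 to 0.19. Dkc1 (ENSMUSG00000031403, chromosome X, 75095854 to 75109777, plus strand) encodes the pseudouridine synthase. Its values were 5.54, 6.39 and 6.82 FPKM in the GFP-labelled libraries and 6.54, 5.81 and 6.20 FPKM in the Cre-labelled ones, which lay inside the GFP-labelled range. The log2 difference was -0.06 ± 0.10 (interval -0.28 to 0.17, adjusted p = 0.819). Nop10 (ENSMUSG00000027133, chromosome 2, 112261926 to 112263269, plus strand), the smallest core protein, measured 14.1, 13.0 and 15.2 FPKM against 14.5, 13.5 and 16.0 FPKM. The groups overlapped almost fully, and the log2 difference of Nop10, 0.02 ± 0.11 (interval -0.23 to 0.26), was the nearest to 0 among the members (adjusted p = 0.96).

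Gar1 (ENSMUSG00000028010, chromosome 3, 129824912 to 129831396, minus strand) encodes the protein that takes the place of NAF1 in the mature particle. It stood at 4.06, 4.47 and 4.37 FPKM in the GFP-labelled libraries and at 4.85, 3.06 and 3.40 FPKM in the Cre-labelled ones. Cre-labelled library 1 was the highest of all 6 and Cre-labelled libraries 2 and 3 were the lowest. The coefficient of variation was 5.0% in the GFP-labelled group and 25.2% in the Cre-labelled group, and the log2 difference was -0.23 ± 0.19 (interval -0.67 to 0.22, adjusted p = 0.589). Nhp2 (ENSMUSG00000001056, chromosome 11, 51619735 to 51623714, plus strand), which binds guide RNA beside dyskerin and NOP10, had Cre-labelled library 1 as the lowest of its group, where Gar1 had it as the highest. It measured 6.58, 6.74 and 6.94 FPKM in the GFP-labelled libraries and 7.01, 9.20 and 7.88 FPKM in the Cre-labelled ones. In the deposited FPKM the groups did not overlap; in TMM-normalised CPM they did, with 9.40 in GFP-labelled library 3 and 9.07 in Cre-labelled library 1. The log2 difference of Nhp2 was 0.22 ± 0.15 (interval -0.13 to 0.57, adjusted p = 0.51).

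Of the assembly factors, Naf1 had the lowest adjusted p of any member. Naf1 (ENSMUSG00000014907, chromosome 8, 66860217 to 66890564, plus strand) encodes the protein that holds the immature H/ACA particle at its site of transcription. Its values were 4.44, 3.58 and 3.91 FPKM in the GFP-labelled libraries and 3.68, 2.79 and 3.68 FPKM in the Cre-labelled ones. A Cre-labelled library was lowest and the other two lay within the GFP-labelled range. Means were 3.98 ± 0.432 and 3.38 ± 0.511 FPKM, and the log2 difference of -0.27 ± 0.15 (interval -0.61 to 0.07) did not pass the test (adjusted p = 0.394). The interval allows a fall of up to 34.6% and a rise of up to 4.84%.

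Shq1 (ENSMUSG00000035378, chromosome 6, 100568256 to 100671157, minus strand) encodes a chaperone that shields free dyskerin from binding RNA. It was the least abundant member, at 1.03, 0.733 and 0.983 FPKM in the GFP-labelled libraries and 1.15, 0.896 and 0.883 FPKM in the Cre-labelled ones. With 248 to 395 counts a library its log2 difference, 0.06 ± 0.19, had an interval from -0.39 to 0.50 (adjusted p = 0.916). Nufip1 (ENSMUSG00000022009, chromosome 14, 76110891 to 76137379, plus strand) encodes the bridge between the C/D core proteins and the RUVBL-containing machinery. It measured 2.32, 3.30 and 3.85 FPKM against 4, 3.00 and 3.67 FPKM. GFP-labelled library 1 was lowest and the remaining values intermixed, with a log2 difference of 0.13 ± 0.19 (interval -0.32 to 0.58, adjusted p = 0.783).

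**Figure D2:**
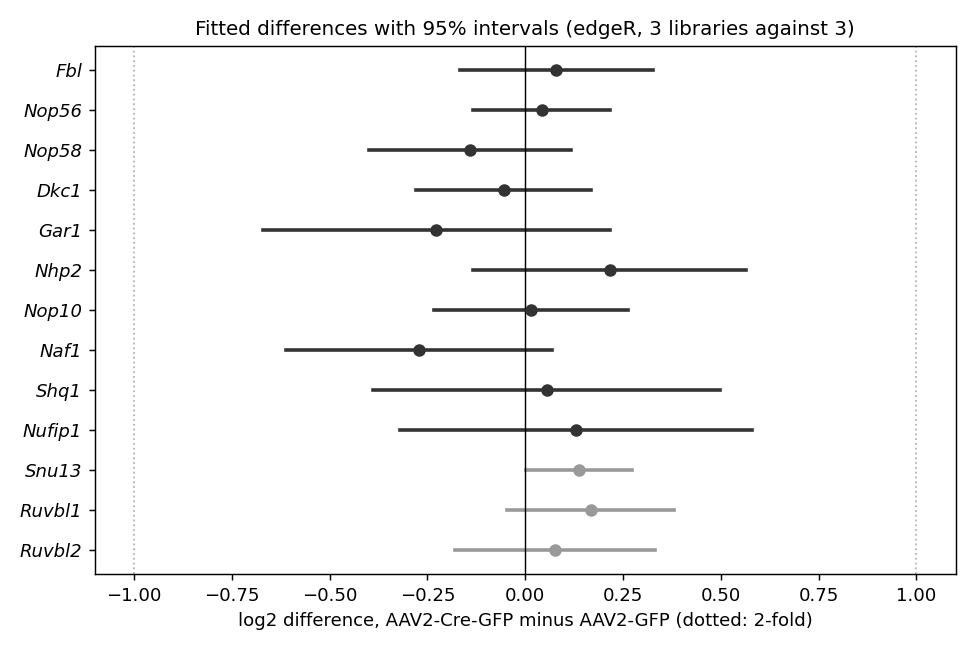
Log2 difference (Cre-labelled minus GFP-labelled) of each gene with its 95% interval from edgeR's quasi-likelihood fit (3 libraries against 3), members in black and Snu13, Ruvbl1 and Ruvbl2 in grey, with dotted lines at a 2-fold change. Every member's interval includes 0 and stays inside the dotted lines, and Gar1 and Naf1 reach farthest down, to -0.67 and -0.61.

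Summed over the members, TMM-normalised CPM were 270, 276 and 305 in the GFP-labelled libraries and 301, 275 and 268 in the Cre-labelled ones, so the sums overlapped. On that scale Cre-labelled library 1 held the highest value for 4 of the 10 members and GFP-labelled library 3 for 3, and GFP-labelled library 1 held the lowest for 5. Which library led depended on the scaling: in CPM scaled by the total alone, Cre-labelled library 1 was highest for 6 members and by the sum (310, against 298 in GFP-labelled library 3). For the ribosomal RNA gene model in the table Cre-labelled library 1 stood highest, at 17630 CPM, with 13490 and 7301 CPM in Cre-labelled libraries 2 and 3 and 2072 to 2219 CPM in the GFP-labelled libraries. The 7SK RNA gene Rn7sk had 2.31, 1.5 and 2.00 CPM against 9.95, 6.96 and 3.24 CPM, and its Cre-labelled values fell in the same order. These values and the marker sums given next are CPM scaled by the total alone. The part of these non-coding RNAs in the members' values was not tested.

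Markers of the labelled tissue were expressed, and some libraries held transcripts of other organs. All 10 neuronal markers, 7 PVH markers, 8 astrocyte, 8 microglial, 8 oligodendrocyte and 6 endothelial markers were present, and none was at 0 in all libraries. Summed neuronal markers were 5550 to 5670 CPM in the GFP-labelled libraries and 4750 to 5040 CPM in the Cre-labelled ones, without overlap, and summed PVH markers were 289, 683 and 734 against 224, 252 and 524 CPM. The PVH sums overlapped, with GFP-labelled library 1 (289 CPM) below Cre-labelled library 3 (524 CPM). In bulk tissue, fewer cells of a type and less RNA per cell cannot be told apart. Kidney transcripts summed to 520 and 580 CPM in Cre-labelled libraries 2 and 3 and to 33.9 to 56.2 CPM in the other libraries. Testis transcripts reached 777 CPM in GFP-labelled library 1 and 130 to 143 CPM elsewhere, and skeletal muscle transcripts 247 CPM in Cre-labelled library 3. Pituitary transcripts were at 31.8 CPM in GFP-labelled library 2 and 1.91 to 8.55 CPM elsewhere. With the 3 libraries high in kidney or testis transcripts left out (GFP-labelled 2, with its pituitary transcripts, and 3 against Cre-labelled 1), 0 of 10 members passed the test, and Nop58 (0.12), Gar1 (0.08), Nhp2 (-0.015) and Nop10 (-0.013) took the other sign on the log2 scale. That fit has 1 Cre-labelled library, which is assumed to vary as the GFP-labelled ones do.

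Compared per length, the members differed widely in level by the deposited FPKM. Over all 6 libraries the mean was 20 FPKM for Nop56, 14.4 for Nop10, 7.39 for Nhp2, 6.22 for Dkc1, 6.05 for Fbl, 4.45 for Nop58, 4.04 for Gar1, 3.68 for Naf1, 3.36 for Nufip1 and 0.945 for Shq1. Neighbours in this order were clear of each other at 3 places: Nop56 above Nop10, Nop10 above Nhp2, and Nufip1 above Shq1, each with ranges that did not overlap. The other 6 neighbouring pairs overlapped in range, although Nhp2 exceeded Dkc1, and Fbl exceeded Nop58, within each of the 6 libraries.

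This order depends on what counts as the gene's length. The length implied by the deposited FPKM, counts and library totals was 1.16 times the summed length of all annotated exons, retained introns included. That factor was the same for every member, including Nop10 and Nufip1 with 1 transcript each, so it did not affect the order. For Nop58 the annotated exons cover 10758 bases, 6.28 times its coding mRNA of 1713 bases. The ratio of exon sum to coding mRNA was 3.52 for Fbl (4209 against 1197 bases) and 2.18 for Nop56 (4099 against 1877 bases). It was 1.47 for Dkc1, 1.35 for Gar1 and between 1 and 1.1 for Nhp2, Nop10, Naf1, Shq1 and Nufip1. Expressed as CPM per kilobase of the coding mRNA, the 3 box C/D genes and Nop10 led: Nop56 had 50.5, Nop58 32.3, Fbl 24.7 and Nop10 16.7. Dkc1 followed at 10.6, Nhp2 at 9.43, Gar1 at 6.33, Naf1 at 4.41, Nufip1 at 3.88 and Shq1 at 1.13. On this scale every count is credited to the coding mRNA, including counts from retained introns. The choice of length moved the order between genes and left each gene's difference between groups as it was, since 1 length applies to all libraries.

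**Figure D3:**
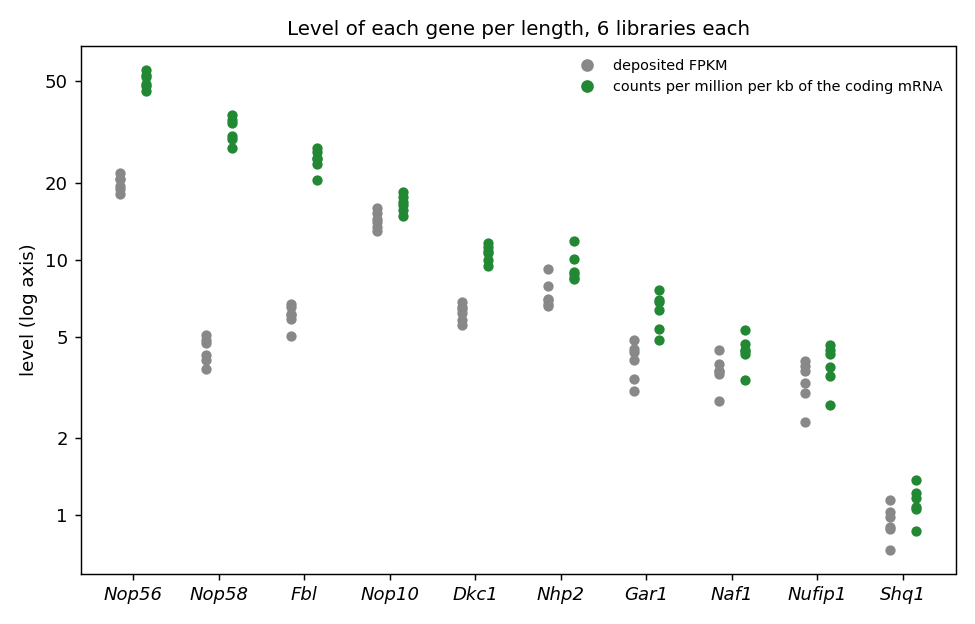
Level of each member per length in the 6 libraries (log axis), as deposited FPKM (grey) and as CPM per kilobase of the coding mRNA (green), ordered by the second. The scales part most for Nop58 (means 4.45 FPKM and 32.3 CPM per kilobase) and Fbl (6.05 and 24.7). They lie closer together for Nop10 (14.4 and 16.7), whose summed exons and coding mRNA have the same length.

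Some rows overlap members or share their sequence, and the library protocol marks the second strand with dUTP while the sources used here do not give whether counting used strand. Overlaps on the opposite strand were short for Nop56 (Idh3b, 5 bases), Dkc1 (Mpp1, 45 bases) and Nhp2 (Rmnd5b, 44 bases). Shq1 is less certain. Within its gene span, introns included, the processed pseudogene Gm6565 covers 438 bases on the opposite strand. Gm6565 had 646 to 943 counts a library, more than Shq1 itself. Gm44116 covers 1525 bases of the span on the same strand, at 0 to 12 counts. Whether either row touches an exon of Shq1 was not checked. Copies of Nop56 had few counts. The 9 rows with 20% or more of their 31-base words found in Nop56 (5 processed pseudogenes and 4 of its snoRNAs) summed to 2.06 to 2.52 CPM in the GFP-labelled libraries and 1.35 to 1.73 CPM in the Cre-labelled ones, where Nop56 had 86.9 to 101 TMM-normalised CPM. By the same measure Naf1 had 1 processed pseudogene, at 16, 49 and 24 counts against 7, 25 and 36 in the Cre-labelled libraries. Naf1 itself had 454 to 723 counts. Fbl and Nop10 had 1 processed pseudogene each, at 0 to 35 and 0 to 6 counts.

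A RefSeq promoter (300 bases around the start, GRCm38.p6) was found for 8 members, all but Fbl and Naf1. Searched on both strands, the word CCAAT occurred in 5 of the 8 (Nop56, Dkc1, Nhp2, Nop10 and Nufip1) and in 41.1% of 27025 genes with a promoter. The word CTTCCGG occurred in 3 (Gar1, Nhp2 and Shq1) and in 9.93% of genes, and TATAAA in 1 (Dkc1) and in 15.7% of genes. The E-box word CACGTG occurred in none of the 8, and in 8.09% of genes. These are letter matches in short windows and were given no test.

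The tested genes outside the pathway lists were searched for profiles over the 6 libraries nearest to the members' mean profile, by the root mean square difference of centred log2 CPM among 7533 candidates. The 3 nearest were Cox7a2l (0.0084), Bex2 (0.0234) and Ddrgk1 (0.0248). The members' mean profile was itself shallow, from -0.084 in Cre-labelled library 2 to 0.12 in GFP-labelled library 3. Log2 differences of the 3 genes were -0.013, -0.034 and 0.028. A near profile is thus one that varies little between libraries, and shared regulation was not tested.

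The rest of the assembly machinery and the steps that snoRNPs serve were described by lists that leave the members out. Each list's counts stand beside the shares over all genes, 17.2% with an unadjusted p under 0.05 in edgeR and 8.03% called by DESeq2. Of 6 further assembly factors 4 were higher and 2 lower, 0 passed edgeR's test or DESeq2, and the median log2 difference was 0.02. Znhit6, a factor of box C/D assembly, was the only one of them with an unadjusted p under 0.05: it measured 7.32, 6.94 and 7.32 FPKM in the GFP-labelled libraries and 6.45, 5.63 and 5.66 FPKM in the Cre-labelled ones. Its groups did not overlap, and its log2 difference was -0.32 ± 0.09 (adjusted p = 0.147). Of 13 genes of snoRNP trafficking and the Cajal body, a nuclear body in which snoRNPs mature, 4 were higher and 9 lower, with a median of -0.05. None of those 13 had an unadjusted p under 0.05, and edgeR, DESeq2 and limma each called 0. The farthest from 0 by value was Ddx20, an SMN-complex helicase, at -0.47 ± 0.23 (adjusted p = 0.356). Ddx20 measured 5.68, 3.33 and 3.14 FPKM in the GFP-labelled libraries and 2.73, 3.45 and 2.83 FPKM in the Cre-labelled ones. GFP-labelled library 1 stood highest, and the other values intermixed.

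Among 47 proteins of the U3 snoRNP and the small subunit processome, the particle that folds and cuts the ribosomal RNA precursor, 25 were higher and 22 lower, with a median of 0.00. Of these 4 were higher and 2 lower at an unadjusted p under 0.05, and edgeR, DESeq2 and limma called 0. Values were -0.25 ± 0.07 for Nop14 (adjusted p = 0.158), 0.25 ± 0.09 for Imp4 (0.219), -0.22 ± 0.09 for Bysl (0.251) and 0.29 ± 0.12 for Ngdn (0.277). Among 42 large subunit assembly factors, 23 were higher and 19 lower, with a median of 0.01, and edgeR and limma called 0. At an unadjusted p under 0.05 there were 3: the helicase Ddx24, from 26.7 ± 0.403 to 22.4 ± 1.35 FPKM (log2 difference -0.29 ± 0.06, adjusted p = 0.0879), Pelp1 (-0.25 ± 0.07, 0.136) and Noc2l (0.26 ± 0.07, 0.142). DESeq2 called 2 of the 42, Ddx24 (adjusted p = 0.000344) and Noc2l (0.027), where it called 8.03% of all genes. Of 15 genes of RNA polymerase I transcription, 9 were higher and 6 lower, with a median of 0.04. The terminator-binding factor Ttf1 measured 2.39, 2.48 and 2.26 FPKM against 3.56, 2.94 and 2.94 FPKM (0.36 ± 0.10, adjusted p = 0.15). It was the only gene of those 15 under an unadjusted p of 0.05, and edgeR, DESeq2 and limma called 0.

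Host genes of snoRNAs that make no protein had the highest median among these pathway lists. Their spliced transcripts are left over when the intronic snoRNAs have been cut out. Some of these transcripts are short-lived because translation brings them to nonsense-mediated decay, which was not measured here. Of the 17 listed genes found in the table, 16 were tested. Of these 13 were higher and 3 lower in the Cre-labelled libraries. The median log2 difference was 0.23, beside -0.0058 over all genes. None passed edgeR's adjusted p of 0.05 or limma's, 6 had an unadjusted p under 0.05 (5 higher, 1 lower), where 17.2% of all genes did, and the groups did not overlap for 7 (6 higher, 1 lower), where 22.8% of all genes do not overlap. DESeq2 called 3 of them, beside 8.03% of all genes. A separate list of non-coding RNAs, with the ribosomal RNA row and Rn7sk among them, had a higher median, 1.085. All 7 tested genes of that list were higher, 0 passed edgeR's test, and the groups did not overlap for 3.

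Gas5, the host of a series of box C/D snoRNAs, measured 16.6, 18.1 and 19.9 FPKM in the GFP-labelled libraries and 28.4, 23.8 and 22.2 FPKM in the Cre-labelled ones. The Cre-labelled values of Gas5 were all above the GFP-labelled ones. The log2 difference of Gas5 was 0.41 ± 0.10, with an adjusted p of 0.124 in edgeR and 0.00387 in DESeq2; the gene overlaps Zbtb37 on the opposite strand. Epb41l4aos measured 2.89, 3.77 and 2.39 FPKM against 8.26, 8.80 and 5.67 FPKM, on 59 to 199 counts. Its groups were also apart, with a log2 difference of 1.29 ± 0.29 (adjusted p = 0.104 in edgeR and 0.00959 in DESeq2). Snhg15 was at 0.555 ± 0.0452 FPKM in the GFP-labelled group and 0.964 ± 0.0361 FPKM in the Cre-labelled group, on 67 to 157 counts. Its log2 difference was 0.75 ± 0.22 (adjusted p = 0.167 in edgeR and 0.144 in DESeq2). Snhg11 went the other way, with 342, 349 and 354 FPKM against 295, 307 and 317 FPKM. Its log2 difference was -0.22 ± 0.06 (adjusted p = 0.134 in edgeR and 0.000789 in DESeq2), and summed neuronal markers were lower in the same 3 libraries. Like the ribosomal RNA row, Gas5 was highest in Cre-labelled library 1; the part of the non-coding RNA and marker differences in these values was not tested. With GFP-labelled 2 and 3 set against Cre-labelled 1, the host list's median was 0.30 and 4 of its genes passed edgeR's test, Gas5, Snhg11, Snhg14 and Snhg8, where 1059 genes passed in all.

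**Figure D4:**
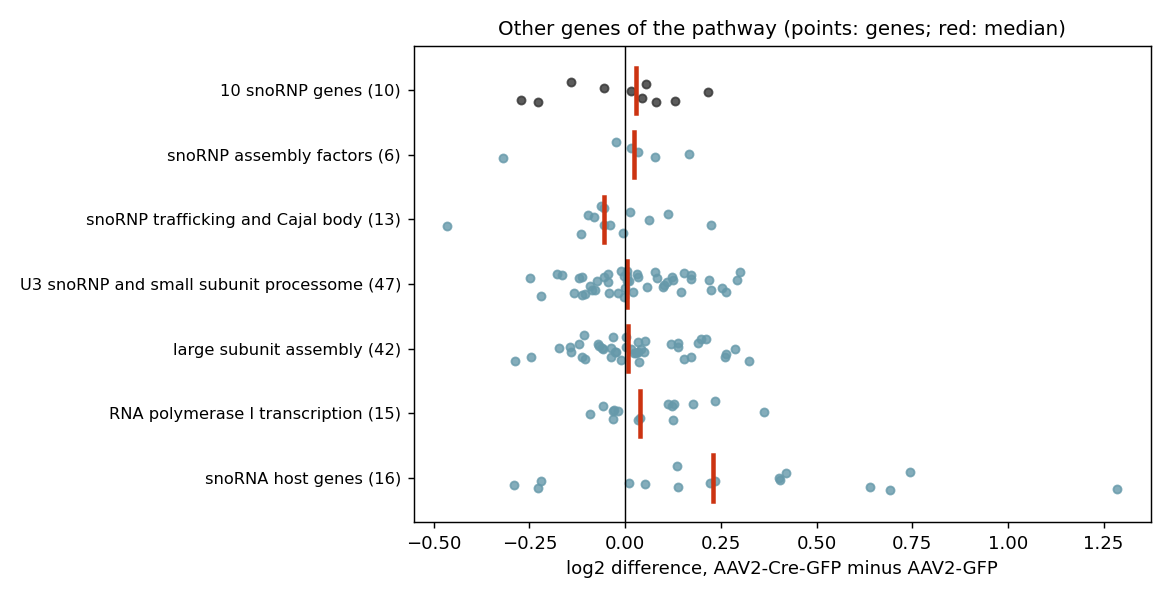
Log2 difference (Cre-labelled minus GFP-labelled) of each tested gene in the members and in 6 lists of related genes (number of genes in brackets), with the median as a red bar. Medians lie between -0.05 and 0.04 for the members and 5 of the lists and at 0.23 for the non-coding snoRNA host genes, whose highest point is Epb41l4aos at 1.29.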

How the data were processed

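Bulk RNA-seq of mouse PVH was used as 1 deposited table with a count and an FPKM value per gene and library. The submitters' processing notes name cutadapt, HISAT2, StringTie and the build mm9, without versions or roles; 91.4% of the gene IDs shared with GENCODE M21 had its GRCm38 coordinates, as did all members. The deposited counts are estimated counts: 97.7% to 98.0% of values from 1 to 8 equal the fraction implied by the FPKM rounded up. The deposited FPKM scale these by length and library. Totals were 41890769 to 54702785 counts per library. Nothing says that libraries are separate animals, and p-values then measure only how far these libraries spread, which may be technical.

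edgeR 4.0.16 (R 4.3.3; TMM, filterByExpr with a minimum count of 10, quasi-likelihood test, two-sided, Benjamini-Hochberg over all genes tested) was the main test, and each SE was computed from its F. DESeq2 1.42.0 and limma 3.58.1, on log2(FPKM + 0.5), were alternatives, and scripts were tested on simulated data. Named genes were the members, Ruvbl1, Ruvbl2, up to 4 genes per list with the smallest p, overlapping rows and the 3 nearest profiles; Snhg14, Snhg8 and Zbtb37 were named after their values were seen. Members and lists were chosen with earlier results of these data known.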

Additional observations from a re-analysis of the deposited data

How the results depend on the processing

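No member passed the threshold in any of the 15 alternatives, and Naf1 kept its sign in all 15. Of 148 member values 12 took the other sign. With 1 library left out at a time, the log2 difference ran from -0.016 (without GFP-labelled library 1) to 0.176 for Fbl, from -0.009 (without GFP-labelled library 1) to 0.113 for Nop56, from -0.138 to 0.017 (without GFP-labelled library 3) for Dkc1, from -0.043 (without GFP-labelled library 2; -0.037 without Cre-labelled library 3) to 0.079 for Nop10, from -0.083 (without GFP-labelled library 2; -0.054 without Cre-labelled library 1) to 0.142 for Shq1 and from -0.051 (without GFP-labelled library 1) to 0.303 for Nufip1. For Ruvbl2, which is no member, it ran from -0.029 (without GFP-labelled library 2) to 0.181. Other members kept their sign: leaving out Cre-labelled library 1 gave -0.423 for Gar1, -0.254 for Nop58 and 0.323 for Nhp2, leaving out Cre-labelled library 2 gave -0.093 for Gar1, 0.111 for Nhp2 and -0.146 for Naf1, leaving out Cre-labelled library 3 gave -0.145 for Gar1 and -0.038 for Nop58, and leaving out GFP-labelled library 2 gave -0.344 for Naf1. With GFP-labelled 2 and 3 against Cre-labelled 1 it was 0.119 for Nop58, 0.081 for Gar1, -0.015 for Nhp2 and -0.013 for Nop10. Member values ran from -0.42 to 0.36 on the log2 scale, with a lowest adjusted p of 0.24. Leaving out 1 library left 3 to 7 members lower (7 without GFP-labelled library 1). The count over all genes was unsteady: 2 genes in the main test, 1322 with DESeq2, 1 without the count filter, 22 with the robust fit, 1 without TMM, 15 with limma at a pseudocount of 0.1, 1 with limma unfiltered, 1 to 296 with 1 library left out (296 without Cre-labelled library 1) and 1059 with 2 libraries against 1. The cause was not tested. Deviations from the group means were hardly correlated between same-numbered libraries (-0.0435, 0.0121 and -0.0216). Differently numbered libraries of the 2 groups gave -0.0426 to 0.0491. These values cannot exclude a shared litter, day or batch, and no label says what the numbers mark. A fit with the replicate block called 3 genes and 0 members. Shq1, under 1 FPKM on average, was outside the filtered limma fits. Counts were fewest for Shq1, Gar1 and Nhp2, and the snoRNAs cannot be compared at these counts.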
